A study of Mus musculus with 9 samples.

Results

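The genes described here are 66 genes of the lysosome, measured as RNA in mouse leukaemia cells after knockdown of Brg1. They comprise 45 named genes for hydrolases, membrane proteins and soluble helper proteins, all found on the array, together with the 21 genes whose symbol begins with Atp6v, which encode subunits of the proton pump. A gene entered when a probe set, the group of probes that reads 1 gene, carried its symbol and no other. The 66 genes were read by 70 probe sets, among 19937 genes tested in all. By role they divide into 33 hydrolases, 4 soluble proteins that are not themselves hydrolases, 8 membrane proteins and 21 pump subunits. Atp6v0c, the proteolipid subunit of the pump, was not analysed here.

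The lysosome is the acid compartment in which cells break down proteins, glycans, lipids and nucleic acids. Its hydrolases work at low pH, which is kept up by the V-ATPase, a rotary pump whose V1 sector splits ATP in the cytosol and whose V0 sector carries protons through the membrane. Membrane proteins shield the bilayer, move products out and carry some enzymes in. Many lysosomal genes carry E-box sequences in their promoters that are bound by the transcription factors TFEB, TFE3 and MITF, and monocytes and macrophages, which digest what they engulf, are rich in lysosomes.

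The cells were RN2, a murine acute myeloid leukaemia line that carries the MLL-AF9 fusion and the NrasG12D allele. All groups carried a hairpin in the TRMPV vector and received 1 ug/ml doxycycline for 96 h, which switches the hairpin on. The groups Brg1sh_3232, Brg1sh_3364 and Brg1sh_4935 each held 2 arrays with a different hairpin against Brg1, the ATPase of the SWI/SNF chromatin remodelling complex, and the Rluc group held 3 arrays with a hairpin against Renilla luciferase. The comparison asks what loss of Brg1 does to transcripts of leukaemia cells. The cell line label of the control arrays holds an extra term, TtTMPV, that the knockdown arrays lack, so this difference in label and the knockdown cannot be told apart. All groups derive from 1 cell line. Whether replicates were grown as separate cultures is not stated, and p-values therefore measure only how these arrays scatter, which may be technical scatter.

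Values are log2 expression after RMA normalisation, and a change is a difference of group means on that scale, where 1 is a doubling. A gene counted as called when its limma p-value, adjusted by Benjamini-Hochberg over all 19937 genes, was below 0.05, and "rose" and "fell" are used for called genes. The targeted gene Smarca4, which encodes Brg1, gave 11.79, 11.77 and 11.79 in the Rluc arrays, 10.67 and 10.90 with Brg1sh_3232, 10.78 and 10.81 with Brg1sh_3364 and 10.70 and 10.76 with Brg1sh_4935. It fell by 1.01 (SE 0.05, adjusted p = 2.22e-06) in the mean of the 3 hairpins, and by 1.00, 0.99 and 1.05 with the hairpins in that order. Medians of the 9 arrays over all probe sets lay between 7.39 and 7.49. Of genes that mark blood and myeloid cells, Ptprc was at 12.15 or more and Spi1 at 12.68 or more in every array, above the array medians.

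Transcripts of 23 of the 33 hydrolases chosen here rose in the mean of the hairpins, as did those of 7 of the 21 pump subunits. With Brg1sh_3364, 15 of the 33 hydrolases rose. In the mean of the 3 hairpins against Rluc, 38 of the 66 genes rose and 3 fell, beside 13.3% and 15.0% of all genes tested. With Brg1sh_3232, 34 rose and 4 fell (9.59% and 11.3% of all genes). With Brg1sh_3364 the counts were 28 and 3 (13.6% and 12.2%), and with Brg1sh_4935 35 and 3 (9.79% and 12.3%). The median change over the 66 genes was 0.18, 0.15 and 0.22 with the 3 hairpins and 0.20 in their mean, against 0.00 over all genes tested in the mean. Most changes were small: 2 of the rises in the mean, those of Lgmn and Ids, reached 2-fold, and 7 reached 1.5-fold. The 3 hairpins share the control arrays, so their counts are not independent. Of the 66 genes, 23 rose with each hairpin, beside 6.10% of all genes, and 1, Scarb2, fell with each, beside 6.14%. None of the 66 genes rose with 1 hairpin and fell with another. Of all 19937 genes tested 107 did, so this is near the share of all genes. With no hairpin called were 22 of the 66 genes, beside 12838 of all 19937. All 6 knockdown arrays lay above all 3 control arrays for 34 genes and below them for 2, beside 10.7% and 12.1% of all genes. The 34 rises with Brg1sh_3232 became 20, and its 4 falls 2, without Brg1sh_3232 replicate 2. The 3 falls with Brg1sh_3364 became 1 when either of its arrays was left out.

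Counts by class follow. Of the 33 hydrolases 23 rose and 1 fell in the mean of the hairpins, with a median change of 0.22. All 4 soluble non-enzymes rose, with a median of 0.38. Of the 8 membrane proteins 4 rose and 2 fell (median 0.11). Of the 21 pump subunits 7 rose and none fell in limma (median 0.02), and 0 were lower at an unadjusted p below 0.05. With Brg1sh_3364, 15 hydrolases rose, compared with 22 with each of the other hairpins. The difference between classes was not itself tested. When the 3 hairpin means stood in for the knockdown replicates, 15 hydrolases rose and none fell. With hairpin as a random block 13 rose, none fell, and 3 pump subunits rose. The shares of all genes called in these 2 fits were not counted, so these counts cannot be set beside them. Calls lost in both of these fits were those of Ctsb, Ctsc, Ctsh, Gla, Hexa, Arsb, Galc, Lipa, Ppt1, Mcoln1, Atp6v0d2 and Atp6v1g2, and with the random block also those of Ctsa, Gaa, Atp6v0d1 and Atp6v1g1.

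**Figure D1:**
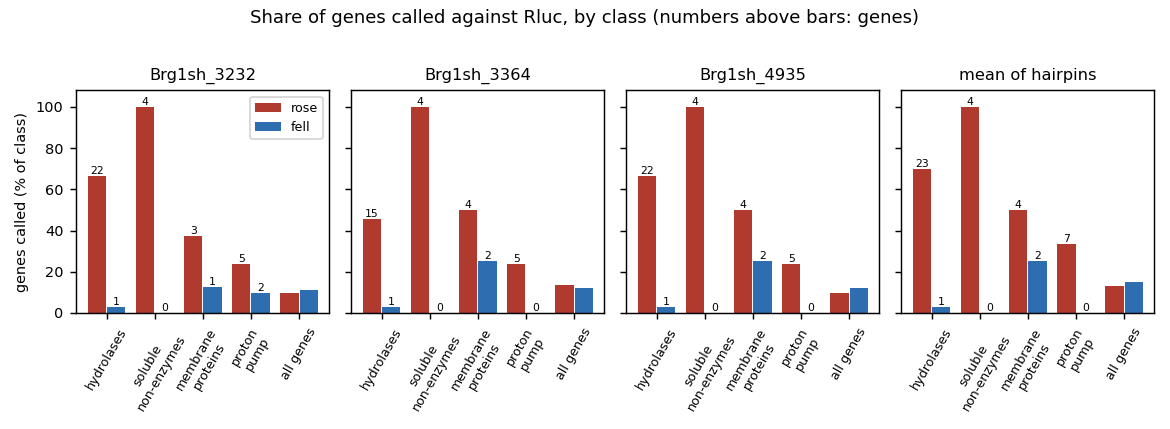
Share of genes called against Rluc with each hairpin and in the mean of the hairpins, in percent of each class (y axis), for genes that rose (red) and fell (blue), with the number of lysosomal genes above each bar and all 19937 genes at the right of each panel. In the mean, 23 of 33 hydrolases and 7 of 21 pump subunits rose, and 13.3% of all genes did.

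The E-box CACGTG was looked for in the promoters of these genes, since the factors named above bind it. Windows from 250 bases before to 50 bases after the start of transcription were taken from RefSeq on GRCm38.p6, where 55 of the 66 genes had 64 windows. CACGTG, which reads the same on both strands, stood in 18 of the 64 windows (28.1%), beside 8.26% of the windows of all genes tested and 7.15% of all promoters. TCACGTGA, which contains it and also reads the same on both strands, stood in 12.5% of the members' windows and 1.32% of those of genes tested. TCATGTGA, searched on both strands and which contains none of them, stood in 7.81% against 0.879%. A longer form of TCACGTGA, with a G before it and a C after it, was also searched. It stood in 1 of the 64 windows of members (1.56%), that of Cln3, and in 0.466% of those of genes tested. This longest motif was thus nearly absent from the members' windows. Median GC content was 56.8% in the members' windows and 57.7% in those of genes tested. CACGTG was present for 11 of the 32 matched genes that rose, 7 of the 20 not called and 0 of the 3 that fell. TCACGTGA was present for 6, 2 and 0 of these genes, its longer form for 1, 0 and 0, and TCATGTGA for 5, 0 and 0. These matches describe the letters and show no binding, and the shares were not tested.

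The 250 bases before the start site are printed for genes with at least 2 copies of CACGTG there that rose in the mean of the hairpins, namely the protease gene Ctsd, the alpha-galactosidase gene Gla, whose call was lost without single arrays or hairpins, and the membrane protein genes Cln3 and Mcoln1. They are also printed for Lamp1, which held 4 copies and was not called, and Atp6v0b, which held 2 and was not called, is not shown. Each is written 5′ to 3′ along the gene with CACGTG in capitals.
Ctsd (chr7:142387828-142388077, minus strand): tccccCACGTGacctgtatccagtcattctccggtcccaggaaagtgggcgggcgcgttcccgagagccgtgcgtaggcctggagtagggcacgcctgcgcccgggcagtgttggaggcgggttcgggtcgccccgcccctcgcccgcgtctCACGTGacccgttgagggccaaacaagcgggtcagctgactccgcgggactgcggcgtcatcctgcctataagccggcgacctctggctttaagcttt
Gla (chrX:134601006-134601255, minus strand): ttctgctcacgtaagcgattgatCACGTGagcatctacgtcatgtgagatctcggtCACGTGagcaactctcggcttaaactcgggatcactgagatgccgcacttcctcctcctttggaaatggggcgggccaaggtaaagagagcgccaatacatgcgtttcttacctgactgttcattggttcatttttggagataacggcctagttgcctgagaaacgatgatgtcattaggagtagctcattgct
Cln3 (chr7:126583237-126583486, minus strand): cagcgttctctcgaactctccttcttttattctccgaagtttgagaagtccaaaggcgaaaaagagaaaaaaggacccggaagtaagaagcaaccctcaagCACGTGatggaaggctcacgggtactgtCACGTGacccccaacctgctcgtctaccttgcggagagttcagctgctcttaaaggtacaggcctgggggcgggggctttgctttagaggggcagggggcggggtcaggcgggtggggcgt
Mcoln1 (chr8:3500269-3500518, plus strand): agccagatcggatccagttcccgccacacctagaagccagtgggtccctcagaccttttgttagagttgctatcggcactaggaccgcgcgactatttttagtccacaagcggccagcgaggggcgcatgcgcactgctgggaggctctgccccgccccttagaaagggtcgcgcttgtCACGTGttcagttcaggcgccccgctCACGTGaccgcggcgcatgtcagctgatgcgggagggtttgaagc
Lamp1 (chr8:13158911-13159160, plus strand): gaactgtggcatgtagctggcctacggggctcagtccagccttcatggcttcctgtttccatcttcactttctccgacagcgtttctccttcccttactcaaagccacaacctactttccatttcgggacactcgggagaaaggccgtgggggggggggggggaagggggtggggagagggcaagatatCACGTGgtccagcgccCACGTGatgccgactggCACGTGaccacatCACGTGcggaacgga
Counted from the start site, the first bases of the motif lay at -245 and -98 for Ctsd, at -149 and -121 for Cln3, at -71 and -45 for Mcoln1 and at -61, -45, -28 and -15 for Lamp1. Lgmn held 1 copy at -49 in 1 of its windows, and Ids held none. Cln3 had a second window, from another start site, with no copy.

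Among the hydrolases, 9 of 12 proteases rose and none fell. Lgmn, the asparaginyl endopeptidase legumain, which cleaves and activates other lysosomal proteases, had the largest rise of all 66 genes. Its levels were 8.19, 8.65 and 8.54 in the Rluc arrays, 11.06 and 11.36 with Brg1sh_3232, 10.75 and 10.64 with Brg1sh_3364 and 11.72 and 11.86 with Brg1sh_4935. The lowest knockdown array stood 1.98 log2 units above the highest control array, and Brg1sh_4935 gave the highest levels. Lgmn rose by 2.77 (SE 0.11, adjusted p = 5.46e-07), or 6.82-fold.

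Ctss, the gene for cathepsin S, which trims the invariant chain in antigen presentation, read 9.16, 9.35 and 9.69 in the Rluc arrays, 10.57 and 10.65 with Brg1sh_3232, 9.89 and 9.84 with Brg1sh_3364 and 10.62 and 10.68 with Brg1sh_4935. The Brg1sh_3364 arrays lay only just above the highest control array, well below those of the other hairpins. It rose by 0.98 (SE 0.10, adjusted p = 9.02e-05). Ctsl, which encodes cathepsin L, a cysteine protease, read 10.36, 10.38 and 10.83 in the Rluc arrays, 11.17 and 11.19 with Brg1sh_3232, 11.02 and 10.94 with Brg1sh_3364 and 11.47 and 11.61 with Brg1sh_4935. One control array, replicate 3, stood high among its group, but no knockdown array was as low, and Ctsl rose by 0.71 (SE 0.10, adjusted p = 0.000628). Ctsd, the gene for the aspartic protease cathepsin D, read 13.15, 13.16 and 13.07 in the Rluc arrays, 13.58 and 13.69 with Brg1sh_3232, 13.55 and 13.53 with Brg1sh_3364 and 13.85 and 13.81 with Brg1sh_4935. Its groups did not overlap, and it rose by 0.54 (SE 0.04, adjusted p = 1.71e-05).

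The other called proteases moved less. Tpp1, a tripeptidyl peptidase, rose by 0.26 (SE 0.04), and Ctsa, the protective protein of neuraminidase and beta-galactosidase, by 0.22 (SE 0.04). The cysteine cathepsin genes Ctsb, Ctsh and Ctsc rose by 0.20, 0.19 and 0.18, so that 5 of the 8 cysteine cathepsins rose. Ctsf, Ctsk and Ctsz were not called, at -0.02, 0.04 and -0.04, although Ctsz fell with Brg1sh_3364 alone, by 0.19. Ctsf and Ctsk were dim, below the median level of all genes. The calls of Ctsc and Ctsh rested on few arrays: Ctsc, at 0.14, was not called without Rluc replicate 1, nor was Ctsh, also at 0.14, without Rluc replicate 2. Without hairpin Brg1sh_4935, Ctsb and Ctsc were at 0.12 each and not called, and Ctsc (0.15) and Ctsh (0.14) were not called without Brg1sh_3232, nor Ctsh (0.17) without Brg1sh_3364.

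Of the 11 glycosidases 8 rose and none fell. Idua, whose product alpha-L-iduronidase cuts heparan and dermatan sulphate, read 10.57, 10.71 and 10.51 in the Rluc arrays, 11.48 and 11.59 with Brg1sh_3232, 11.45 and 11.44 with Brg1sh_3364 and 11.61 and 11.50 with Brg1sh_4935. The knockdown arrays lay close together, all above the controls, and Idua rose by 0.91 (SE 0.05, adjusted p = 4.17e-06), with changes of 0.94, 0.85 and 0.96 by hairpin. Neu1, the lysosomal sialidase, read 11.97, 11.77 and 11.70 in the Rluc arrays, 12.38 and 12.39 with Brg1sh_3232, 12.44 and 12.35 with Brg1sh_3364 and 12.21 and 12.11 with Brg1sh_4935. It rose by 0.50 (SE 0.06, adjusted p = 0.000281) with no overlap of the groups. Man2b1, the alpha-mannosidase that trims N-glycans, read 13.04, 12.93 and 12.93 in the Rluc arrays, 13.32 and 13.39 with Brg1sh_3232, 13.37 and 13.40 with Brg1sh_3364 and 13.40 and 13.31 with Brg1sh_4935. The knockdown arrays lay within 0.09 of each other and above the controls, and the gene rose by 0.40 (SE 0.04, adjusted p = 0.000119).

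Smaller rises were measured for Gaa, the acid alpha-glucosidase that degrades glycogen (0.28), Fuca1, an alpha-fucosidase (0.26), Manba, a beta-mannosidase (0.26), Hexa, the alpha subunit of hexosaminidase (0.22), and Gla, the alpha-galactosidase (0.15). Gla was not called without Brg1sh_4935 replicate 2 (0.15), Rluc replicate 1 (0.12) or Rluc replicate 2 (0.15), nor without hairpins Brg1sh_4935 (0.06) or Brg1sh_3232 (0.13). Naglu, Gusb and Glb1 were not called, at 0.10, 0.04 and 0.02. Glb1, the beta-galactosidase held in 1 complex with Ctsa and Neu1, thus gave no call where both partners rose, although it rose with Brg1sh_3232 alone (0.18).

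Of the 4 sulphatases 3 rose and 1 fell. Ids, whose product iduronate 2-sulphatase takes the first sulphate off heparan and dermatan sulphate, read 7.43, 7.43 and 7.67 in the Rluc arrays, 9.10 and 9.17 with Brg1sh_3232, 9.38 and 9.26 with Brg1sh_3364 and 9.28 and 9.38 with Brg1sh_4935. The knockdown arrays of all hairpins lay close together, and the lowest of them stood 1.43 above the highest control array. Ids rose by 1.75 (SE 0.06, adjusted p = 4.5e-07), or 3.37-fold, and the F test called no difference among hairpins (adjusted p = 0.289). Arsa, the arylsulphatase that acts on sulphatide, rose by 0.38 (SE 0.06), and Sgsh, the heparan N-sulphatase, by 0.30 (SE 0.03).

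Arsb, the N-acetylgalactosamine 4-sulphatase, was the only hydrolase that fell in the mean of the hairpins. It read 12.92, 12.98 and 12.78 in the Rluc arrays, 12.67 and 12.67 with Brg1sh_3232, 12.87 and 12.86 with Brg1sh_3364 and 12.48 and 12.38 with Brg1sh_4935. The Brg1sh_4935 arrays were the lowest, and the Brg1sh_3364 arrays lay among the controls, so the groups overlapped. Its change was -0.24 (SE 0.05, adjusted p = 0.00479) in the mean, and its second probe set gave -0.32 (SE 0.05). Without hairpin Brg1sh_4935, Arsb was at -0.13 and not called. Of 6 members whose products take part in heparan sulphate breakdown, Ids, Idua, Sgsh and the membrane acetyltransferase gene Hgsnat rose (66.7%, beside 13.3% of all genes tested), while Naglu and Gusb did not pass the test. Hpse, the heparanase of the same pathway and no member, fell (-0.69, SE 0.08).

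Of the 6 lipid hydrolases 3 rose. Galc, the galactosylceramidase, read 10.56, 10.66 and 10.52 in the Rluc arrays, 10.69 and 10.70 with Brg1sh_3232, 11.23 and 11.20 with Brg1sh_3364 and 11.01 and 10.92 with Brg1sh_4935. Its Brg1sh_3364 arrays were the highest and its Brg1sh_3232 arrays lay just above the controls. Galc rose by 0.38 (SE 0.04, adjusted p = 0.000195) in the mean, with 0.11, 0.63 and 0.39 by hairpin, of which the first was not called. Lipa, the acid lipase for cholesteryl esters, rose by 0.21 (SE 0.04), a call lost without hairpin Brg1sh_4935 (0.12), and Ppt1, a palmitoyl thioesterase, by 0.23 (SE 0.04). Smpd1, Asah1 and Ppt2, for acid sphingomyelinase, acid ceramidase and a second thioesterase, were not called, at 0.15, 0.09 and 0.06. Smpd1 came nearest, with an adjusted p of 0.0896 and a 95% interval of 0.02 to 0.28.

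**Figure D2:**
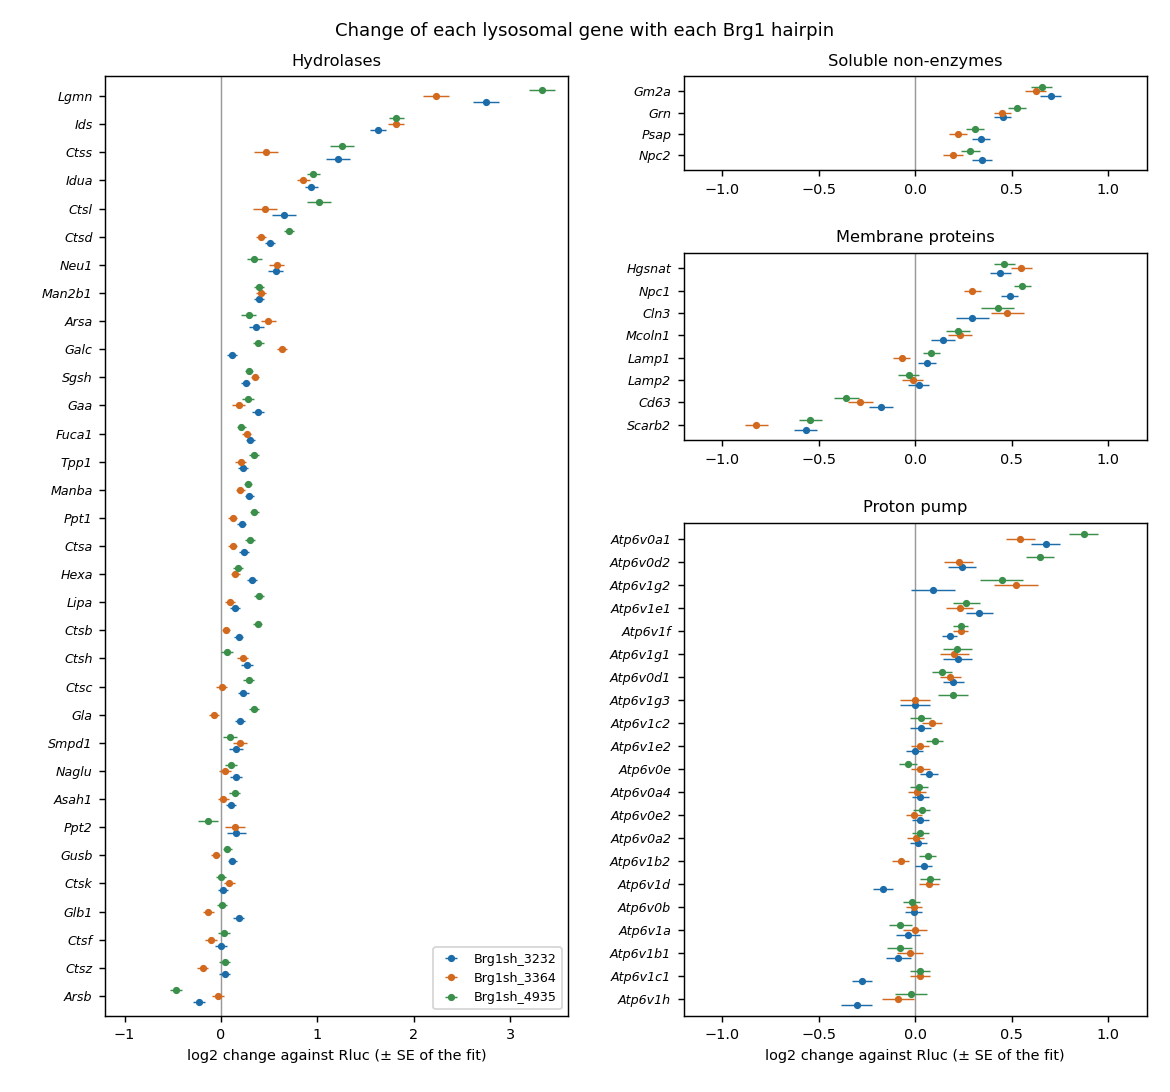
Log2 change against Rluc (x axis) of each of the 66 genes with Brg1sh_3232 (blue), Brg1sh_3364 (orange) and Brg1sh_4935 (green), by class, with bars of 1 SE of the fit; the hydrolase panel has a wider axis. Lgmn and Ids stand apart at 2.77 and 1.75 in the mean, and most pump subunits lie near 0.

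All 4 soluble non-enzymes rose with every hairpin, and in each the 6 knockdown arrays lay above the 3 controls. Gm2a, the activator that presents ganglioside GM2 to hexosaminidase, read 12.36, 12.38 and 12.22 in the Rluc arrays, 13.00 and 13.04 with Brg1sh_3232, 12.93 and 12.95 with Brg1sh_3364 and 12.98 and 12.97 with Brg1sh_4935, and rose by 0.66 (SE 0.04, adjusted p = 8.37e-06). Grn, the gene for progranulin, which is cut into granulins in the lysosome, read 13.06, 13.12 and 13.13 in control and 13.53 and 13.58, 13.55 and 13.56, and 13.65 and 13.61 with the hairpins in that order. It rose by 0.48 (SE 0.03, adjusted p = 1.6e-05). Psap, the precursor of the saposins that assist sphingolipid hydrolysis, read 13.10, 13.14 and 13.05 in control and 13.42 and 13.46, 13.32 and 13.32, and 13.44 and 13.37 with the hairpins in that order, and rose by 0.29 (SE 0.04). Npc2, which hands cholesterol to NPC1, read 11.28, 11.32 and 11.23 in control and 11.57 and 11.68, 11.49 and 11.46, and 11.56 and 11.57 with the hairpins in that order, and rose by 0.28 (SE 0.04). No knockdown array of these genes reached down to a control array, and the F test called no difference among hairpins for any of them.

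The membrane proteins moved in both directions. Hgsnat read 11.23, 11.29 and 11.32 in the Rluc arrays, 11.68 and 11.76 with Brg1sh_3232, 11.86 and 11.79 with Brg1sh_3364 and 11.80 and 11.68 with Brg1sh_4935. All knockdown arrays lay above the controls, and Hgsnat rose by 0.48 (SE 0.04, adjusted p = 4.43e-05). Npc1, the membrane exporter of cholesterol, read 10.94, 11.00 and 11.01 in control and 11.45 and 11.50, 11.29 and 11.26, and 11.55 and 11.53 with the hairpins in that order. It rose by 0.45 (SE 0.03, adjusted p = 2.34e-05), least with Brg1sh_3364, so that both genes of the cholesterol export pair, Npc1 and Npc2, rose. Cln3, a membrane protein lost in juvenile Batten disease, read 12.01, 12.25 and 12.23 in control and 12.35 and 12.56, 12.63 and 12.65, and 12.63 and 12.55 with the hairpins in that order. The groups stood apart, and Cln3 rose by 0.40 (SE 0.07, adjusted p = 0.0017). Mcoln1, the calcium channel TRPML1, read 11.86, 12.04 and 12.03 in control and 12.11 and 12.14, 12.18 and 12.25, and 12.21 and 12.20 with the hairpins in that order. Its lowest knockdown array lay 0.07 above its highest control array, and it rose by 0.20 (SE 0.05, adjusted p = 0.0113).

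Scarb2, the gene for LIMP-2, a receptor that carries glucocerebrosidase to the lysosome, had the largest fall of the 66 genes. It read 9.73, 9.89 and 9.83 in the Rluc arrays, 9.26 and 9.24 with Brg1sh_3232, 8.94 and 9.04 with Brg1sh_3364 and 9.25 and 9.29 with Brg1sh_4935. All knockdown arrays lay below all controls, lowest with Brg1sh_3364. Scarb2 fell in the mean, with a change of -0.65 (SE 0.05, adjusted p = 1.39e-05) and -0.57, -0.83 and -0.54 by hairpin. Cd63, a tetraspanin of late endosomes and lysosomes, read 12.80, 12.64 and 12.63 in the Rluc arrays, 12.51 and 12.51 with Brg1sh_3232, 12.42 and 12.39 with Brg1sh_3364 and 12.40 and 12.27 with Brg1sh_4935. The groups did not overlap, and its change was -0.27 (SE 0.05, adjusted p = 0.00284), though it was not called with Brg1sh_3232. Lamp1 and Lamp2, the abundant glycoproteins that line the lysosomal membrane, were not called. Lamp1 read 12.95, 12.97 and 12.90 in control and 13.01 and 13.00, 12.87 and 12.88, and 13.06 and 12.99 with the hairpins in that order, with a difference of 0.03 (95% interval -0.05 to 0.10). Lamp2 gave a difference of -0.01 (95% interval -0.11 to 0.09).

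**Figure D3:**
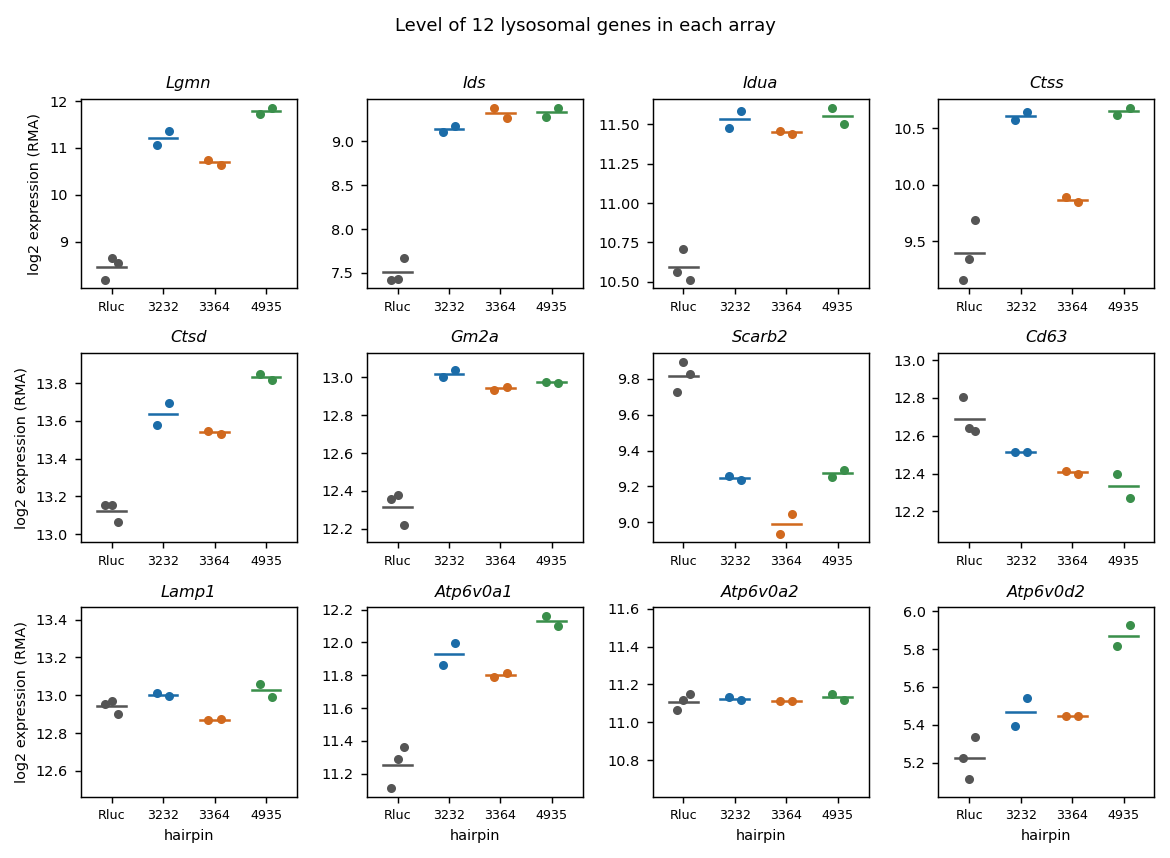
Log2 expression (y axis, each panel with its own range) of 12 lysosomal genes in each array, for Rluc (grey, 3 arrays) and the 3 Brg1 hairpins (2 arrays each); points are arrays and lines are group means. Lgmn, Ids and Idua lie above the controls with every hairpin, Scarb2 and Cd63 below, and Lamp1 and Atp6v0a2 were not called.

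Of the 21 proton pump genes 7 rose (33.3%) and none fell in the mean, and of the 13 left without the tissue-restricted isoforms 5 rose (38.5%), beside 13.3% of all genes tested. Of the 8 V0 subunits 3 rose, and of the 13 V1 subunits 4 rose. The a subunit of V0, which lines the proton path and helps direct the pump to a membrane, has several isoforms. Atp6v0a1 read 11.11, 11.29 and 11.36 in the Rluc arrays, 11.86 and 11.998 with Brg1sh_3232, 11.79 and 11.82 with Brg1sh_3364 and 12.16 and 12.10 with Brg1sh_4935. Its arrays did not overlap, and it rose by 0.70 (SE 0.06, adjusted p = 3.43e-05), the largest change of the pump. Atp6v0a2 read 11.06, 11.12 and 11.15 in control and 11.13 and 11.12, 11.11 and 11.11, and 11.15 and 11.12 with the hairpins in that order, all within 0.09 of each other, with a difference of 0.02 (95% interval -0.06 to 0.09) and -0.05 on its second probe set. Atp6v0a4, the kidney isoform, was dim, read 6.71, 6.77 and 6.77 in control and 6.78 and 6.77, 6.73 and 6.79, and 6.77 and 6.77 with the hairpins in that order, and gave 0.02, not called. The a3 isoform, encoded by Tcirg1 and so outside the rule for members, gave -0.01 and was not called.

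The d subunit couples V0 to the central stalk. Atp6v0d1, the ubiquitous isoform, read 12.55, 12.51 and 12.45 in control and 12.64 and 12.77, 12.70 and 12.67, and 12.64 and 12.64 with the hairpins in that order, and rose by 0.17 (SE 0.04, adjusted p = 0.0118). It was not called without Rluc replicate 3 (0.15). Atp6v0d2, the isoform known from osteoclasts and kidney, was dim and read 5.22, 5.11 and 5.34 in the Rluc arrays, 5.39 and 5.54 with Brg1sh_3232, 5.45 and 5.45 with Brg1sh_3364 and 5.82 and 5.93 with Brg1sh_4935. The 2 Brg1sh_4935 arrays were clearly the highest, while the other hairpins lay just above the controls. Atp6v0d2 rose by 0.37 (SE 0.06, adjusted p = 0.00113). The remaining V0 subunits Atp6v0b, Atp6v0e and Atp6v0e2 were not called, at -0.01, 0.02 and 0.02.

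In V1, no gene of the catalytic head of A and B subunits was called. The difference of Atp6v1a was -0.04. Atp6v1b2, the widely expressed B isoform, read 13.20, 13.16 and 13.20 in control and 13.25 and 13.20, 13.14 and 13.08, and 13.25 and 13.25 with the hairpins in that order, with a difference of 0.01 (95% interval -0.07 to 0.09). Atp6v1b1, the kidney isoform, was dim, read 7.10, 7.13 and 7.04 in control and 7.07 and 6.94, 7.07 and 7.06, and 7.10 and 6.92 with the hairpins in that order, with a difference of -0.06.

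The risers of V1 lay in the stalks. Atp6v1e1, the ubiquitous E subunit, read 12.29, 12.11 and 12.09 in control and 12.47 and 12.52, 12.43 and 12.36, and 12.37 and 12.49 with the hairpins in that order, and rose by 0.28 (SE 0.05, adjusted p = 0.00434), whereas the dim isoform Atp6v1e2, at 7.43, 7.50 and 7.51 in control and 7.49 and 7.47, 7.51 and 7.51, and 7.62 and 7.55 with the hairpins in that order, gave 0.04 and was not called. Atp6v1f, the F subunit of the central stalk, read 12.50, 12.51 and 12.52 in control and 12.68 and 12.69, 12.75 and 12.74, and 12.73 and 12.75 with the hairpins in that order. It rose by 0.22 (SE 0.03, adjusted p = 0.000709). Its second probe set gave 0.27 (SE 0.17) and was not called, and the mean of both probe sets gave 0.24 (adjusted p = 0.0516), which was not called.

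The G subunit pairs with E in the outer stalks. Atp6v1g1 read 10.91, 10.72 and 10.80 in control and 11.13 and 10.94, 11.02 and 11.01, and 10.98 and 11.08 with the hairpins in that order, and rose by 0.21 (SE 0.06, adjusted p = 0.0207). This call was lost without Brg1sh_3364 replicate 2 (0.21), Brg1sh_4935 replicate 2 (0.20), Rluc replicate 2 (0.17) or Rluc replicate 3 (0.21), or without hairpin Brg1sh_3364 (0.22), and its second probe set, at 0.19, was not called. Atp6v1g2, the brain isoform, read 9.15, 9.43 and 9.50 in the Rluc arrays, 9.30 and 9.60 with Brg1sh_3232, 9.82 and 9.94 with Brg1sh_3364 and 9.81 and 9.81 with Brg1sh_4935. Its first Brg1sh_3232 array lay among the controls. Atp6v1g2 rose by 0.35 (SE 0.09, adjusted p = 0.0144). Without Rluc replicate 1 (0.25), or without hairpins Brg1sh_3364 (0.27) or Brg1sh_4935 (0.31), it was not called. Atp6v1g3, a dim isoform, read 6.0, 5.74 and 5.92 in control and 5.86 and 5.92, 5.93 and 5.85, and 6.03 and 6.14 with the hairpins in that order, and gave 0.06, not called.

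Some V1 genes moved with a single hairpin. Atp6v1c1, whose product regulates the joining of V1 to V0, read 12.34, 12.34 and 12.45 in the Rluc arrays, 12.08 and 12.12 with Brg1sh_3232, 12.44 and 12.36 with Brg1sh_3364 and 12.41 and 12.39 with Brg1sh_4935. Only the Brg1sh_3232 arrays stood apart, below the rest. It fell with that hairpin (-0.28) and was not called in the mean (-0.08). Atp6v1h, the H subunit, also fell with Brg1sh_3232 alone (-0.30) and was not called in the mean (-0.14). Atp6v1d, the central D subunit, was not called against Rluc with any hairpin, at -0.17, 0.07 and 0.08. Atp6v1c2, a dim isoform, read 6.89, 6.89 and 6.80 in control and 6.89 and 6.89, 6.88 and 7.01, and 6.89 and 6.89 with the hairpins in that order, and gave 0.05, not called. Of the 8 isoforms known for restricted tissues, Atp6v0d2 and Atp6v1g2 rose, and of the other 13 subunits 5 rose.

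The 3 hairpins were also compared with each other, for which the F test called no difference in Smarca4 itself (adjusted p = 0.802, and a 95% interval of -0.10 to 0.22 for Brg1sh_3364 minus Brg1sh_4935). By the F test 16 of the 66 genes differed among hairpins, beside 10.5% of all genes tested. Of these 11 were hydrolases, 2 membrane proteins and 3 pump subunits. By the order of group means, whether or not a pair was called, the change was lowest with Brg1sh_3364 in 12 of the 16 and highest with Brg1sh_4935 in 12. Brg1sh_3364 was below Brg1sh_4935 for 13 of the 66 genes and above it for 2 (3.10% and 4.51% of all genes). It was below Brg1sh_3232 for 5 and above it for 3 (3.84% and 5.81%). Brg1sh_4935 was above Brg1sh_3232 for 1 gene, Atp6v1c1, and below it for none (0.612% and 0.411% of all genes), with 15 higher and 7 lower at an unadjusted p below 0.05 in limma. The F test count rested on few arrays: it was 4 and 2 without Brg1sh_3364 replicates 1 and 2, 6 and 3 without Brg1sh_4935 replicates 1 and 2, and 10 without either array of Brg1sh_3232.

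Lgmn was 1.10 lower with Brg1sh_3364 than with Brg1sh_4935 (95% interval of the difference, Brg1sh_3364 minus Brg1sh_4935, -1.44 to -0.76, adjusted p = 0.00327). Ctss differed by -0.74 between Brg1sh_3364 and Brg1sh_3232 (-1.05 to -0.43, adjusted p = 0.0111) and by -0.79 against Brg1sh_4935 (-1.10 to -0.48, adjusted p = 0.00964). Galc went the other way, with Brg1sh_3364 above Brg1sh_3232 by 0.52 (0.38 to 0.66, adjusted p = 0.0014). Galc, whose change in the mean was 0.38, was not called with Brg1sh_3232, nor in the mean with hairpin means as replicates (adjusted p = 0.108) or hairpin as a random block (adjusted p = 0.109).

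Gla read 12.005, 12.07 and 12.13 in the Rluc arrays, 12.27 and 12.25 with Brg1sh_3232, 12.04 and 11.95 with Brg1sh_3364 and 12.39 and 12.43 with Brg1sh_4935. Its Brg1sh_3364 arrays lay among the controls or below them, and Gla was lower with Brg1sh_3364 than with Brg1sh_4935 by a difference of -0.42 (adjusted p = 0.00335). Ctsb, for cathepsin B, read 12.96, 12.92 and 12.89 in the Rluc arrays, 13.10 and 13.11 with Brg1sh_3232, 12.99 and 12.96 with Brg1sh_3364 and 13.28 and 13.32 with Brg1sh_4935. The Brg1sh_4935 arrays were highest, and the difference of Brg1sh_3364 from them was -0.33 (adjusted p = 0.00428). For Arsb the same pair differed by 0.43 (adjusted p = 0.00602), since the fall was larger with Brg1sh_4935. Other genes that rose in the mean and differed among hairpins by the F test were Ctsd, Lipa, Npc1, Ctsc, Ppt1 and Atp6v0d2. Man2b1 and Gm2a gave no such call. The changes of Man2b1 were 0.39, 0.42 and 0.39 by hairpin (F test adjusted p = 0.953), with a 95% interval of -0.11 to 0.16 for Brg1sh_3364 minus Brg1sh_4935, and those of Gm2a were 0.70, 0.62 and 0.66 (adjusted p = 0.667), with an interval of -0.17 to 0.10.

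**Figure D4:**
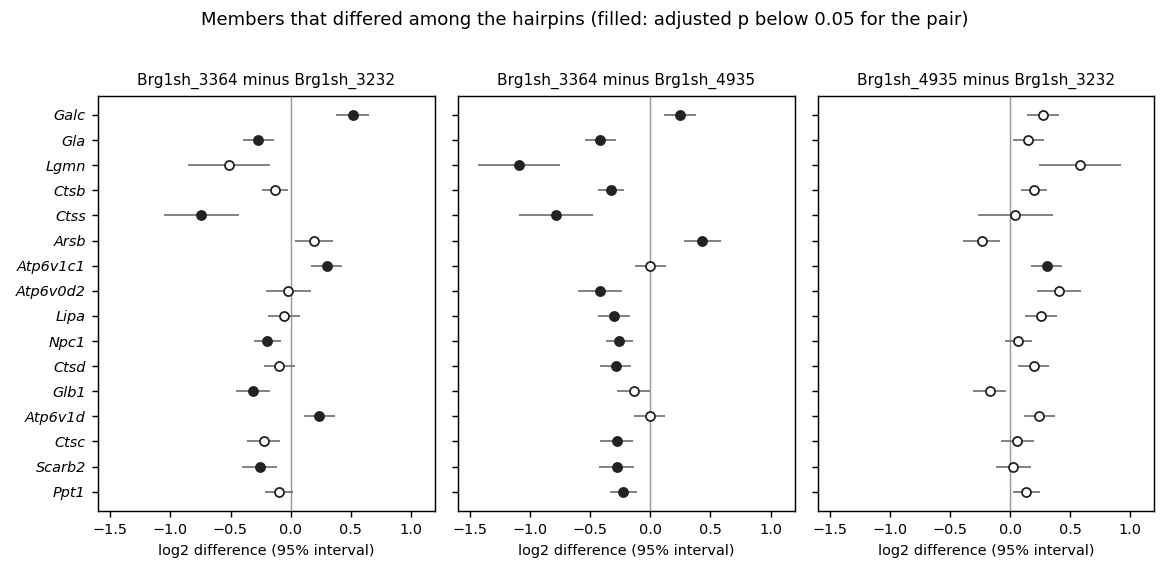
Pairwise log2 differences between hairpins (x axis) with 95% intervals for the 16 lysosomal genes called by the F test among hairpins; filled points have an adjusted p below 0.05 for that pair. Most points of the middle panel, Brg1sh_3364 minus Brg1sh_4935, lie below 0, with Lgmn at -1.10, and Galc and Arsb above it.

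Other genes of the same pathways were taken from fixed lists and counted in the mean of the hairpins. Over all genes tested, 13.3% rose and 15.0% fell in that mean. Of 4 genes for the MiT/TFE factors, which bind E-boxes of lysosomal promoters, 3 rose. Mitf read 8.72, 8.87 and 8.75 in the Rluc arrays, 9.65 and 9.60 with Brg1sh_3232, 9.35 and 9.33 with Brg1sh_3364 and 9.92 and 9.92 with Brg1sh_4935, and rose by 0.85 (SE 0.04, adjusted p = 2.09e-06), though its second, very dim probe set gave -0.04. Tfeb read 9.48, 9.56 and 9.61 in control and 9.96 and 10.09, 10.29 and 10.23, and 10.11 and 10.01 with the hairpins in that order, and rose by 0.57 (SE 0.05, adjusted p = 3.43e-05). Tfe3 rose by 0.24 (SE 0.04), and Tfec was not called (-0.01). The knockdown arrays of Mitf and Tfeb all lay above the control arrays.

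Of 27 genes listed as other lysosomal enzymes 11 rose and 3 fell, beside 13.3% and 15.0% of all genes tested. This list was drawn broadly from general knowledge, and the place of its products in the cell was not checked. Scpep1, a serine carboxypeptidase, rose by 0.45 (SE 0.04), Naaa, an acid amidase, by 0.68 (SE 0.06), and Ctse, the aspartic protease cathepsin E, by 0.38 (SE 0.04). The 3 falls were those of Hpse, the heparanase (-0.69), Acp5, the tartrate-resistant phosphatase (-0.48), and Ctsg, a granule protease (-0.20). Acp5 and Ctsg are counted again below, in the osteoclast and primary granule lists. Of 34 other lysosomal membrane proteins 13 rose and 5 fell, beside the same shares of all genes, so the falls were near that share. The smallest p-values were those of the peptide transporter genes Slc15a3 (0.64, SE 0.05) and Slc15a4 (0.33, SE 0.04), and of Cd68, a macrophage glycoprotein (0.55, SE 0.07).

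Among 12 genes for V-ATPase accessory and assembly proteins, 2 rose and 3 fell, beside 13.3% and 15.0% of all genes tested. Dmxl2, a rabconnectin that promotes assembly of the pump, read 10.17, 10.19 and 10.10 in the Rluc arrays, 10.81 and 10.85 with Brg1sh_3232, 11.22 and 11.30 with Brg1sh_3364 and 10.93 and 10.93 with Brg1sh_4935, and rose by 0.85 (SE 0.04, adjusted p = 1.15e-06). Atp6ap1, an accessory protein of V0, rose by 0.20 (SE 0.03). Atp6ap2, the prorenin receptor, fell (-0.27, SE 0.05), as did the assembly factor genes Ccdc115 (-0.27) and Vma21 (-0.25).

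Of 12 genes for enzyme targeting and activation, 3 rose and 2 fell, beside 13.3% and 15.0% of all genes tested. Gga2, a coat adaptor that sorts mannose 6-phosphate receptors, fell (-0.44, SE 0.04), and Sort1, the sorting receptor sortilin, rose by 0.17 (SE 0.05). Sumf1, which activates sulphatases, rose by 0.14 (SE 0.04). Igf2r, the large mannose 6-phosphate receptor, was not called (-0.04). Of 6 cystatins, which inhibit cysteine cathepsins, 1 rose and 1 fell, beside the same shares of all genes. Cst7, the gene for cystatin F, read 12.84, 12.87 and 12.72 in the Rluc arrays, 11.97 and 12.08 with Brg1sh_3232, 11.24 and 11.06 with Brg1sh_3364 and 11.51 and 11.67 with Brg1sh_4935. All knockdown arrays were below the controls, lowest with Brg1sh_3364, and its change was -1.22 (SE 0.06, adjusted p = 2.27e-06). Cst3, for the secreted cystatin C, rose by 0.32 (SE 0.05), and Stfa3 was not called (-0.18). Over these 6 lists together, 32 genes rose and 14 fell, beside 13.3% and 15.0% of all genes tested. The lists held 4, 27, 34, 12, 12 and 6 measured genes in the order given, so the falls were near the share of all genes. Sidt2, which stands in both the enzyme and the membrane list, was counted once. Without Rluc replicate 2, 9 fell.

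Markers of mature myeloid cells moved in the same arrays. Of 10 macrophage or monocyte markers 9 rose and none fell in the mean, beside 13.3% and 15.0% of all genes tested. Their median changes were 0.64, 0.38 and 0.78 with the 3 hairpins. The median level over the list was 10.91 to 10.92 in the Rluc arrays, 12.06 to 12.08 with Brg1sh_3232, 11.54 to 11.55 with Brg1sh_3364 and 12.05 to 12.11 with Brg1sh_4935. Cx3cr1, a chemokine receptor gene, rose by 1.92 (SE 0.05), Csf1r, the receptor for macrophage colony-stimulating factor, by 1.06 (SE 0.04), and Mpeg1, for perforin-2, by 0.91 (SE 0.04). The list was lowest of the hairpins with Brg1sh_3364, as were 12 of the 16 lysosomal genes that differed among hairpins, Scarb2, which fell, among them. This is an order of group means. For Lipa, Ctsd and Atp6v0d2, among others, Brg1sh_3364 was not called below Brg1sh_3232. Other lists had other orders. The late neutrophil median was highest with Brg1sh_3364, at 12.63 to 12.65. The primary granule median was lowest with Brg1sh_4935, at 12.655 to 12.73. A link between these orders was not tested. Fewer cells of a type and less RNA per cell cannot be told apart in these bulk samples, nor can more of either. The part of a change in cell state in the lysosomal values was not tested.

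Other lineages gave mixed counts in the mean of the hairpins, to be read beside 13.3% rises and 15.0% falls over all genes tested. Of 9 late neutrophil markers 4 rose, 1 fell and 4 were not called. Among the risers were Padi4 (1.00), Mmp8 (1.84) and Mmp9 (0.92). The median change of the list was 0.03 with Brg1sh_3232, 0.39 with Brg1sh_3364 and -0.01 with Brg1sh_4935, so the list did not rise as a whole with every hairpin. All 5 primary granule genes fell in the mean, among them Cst7, Mpo (-0.87) and Prtn3 (-0.56), which load the lysosome-related azurophil granules of promyelocytes. With Brg1sh_3232, 2 of the 5 fell and 3 were not called. The median change of the 5 was -0.20 with Brg1sh_3232, -0.64 with Brg1sh_3364 and -0.83 with Brg1sh_4935. Of 9 osteoclast genes, which include the members Ctsk and Atp6v0d2, 3 rose and 1 fell, with Mmp9 and Nfatc1 (0.35) up and Acp5 down. Of 8 mast cell or basophil genes 2 rose and 3 fell, with Hdc (-1.71) and Mcpt8 (-0.39) down and Cpa3 up (3.46). Of 6 dendritic cell markers only Itgax rose (3.03). Of 5 lymphoid or erythroid markers 0 were called by limma, and 0 had an unadjusted p below 0.05, and of 7 fibroblast or endothelial markers only Pecam1 rose (0.56), a gene that myeloid cells also express. Of 10 genes of myeloid leukaemia identity 5 rose and 3 fell, with Csf2rb up (0.34) and Cebpa (-0.61) and Hoxa9 (-0.40) down.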

How the data were processed

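RNA of RN2 cells was read on 9 Affymetrix arrays. The authors' deposited table holds 1 log2 level per probe set and array. Per the submitters' processing notes, the authors used RMA. RMA corrects background, equalises the arrays by quantiles and summarises probes. The sources used here give neither its version nor the software or build. Detection calls, scan dates and scanner files were not used here. Precision is limited by how few arrays there are.

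Of 34760 probe sets, 21640 had 1 gene symbol in the platform annotation, 1321 several and 11799 none. Only the first were named, and the probe set with the highest mean stood for a gene (19937 genes). A linear model with 1 mean per group took in all 9 arrays (R 4.3.3, limma 3.58.1, eBayes with 5 residual and 3.85 prior degrees of freedom). It had contrasts for each hairpin, their equally weighted mean, pairs of hairpins and a moderated F test. Tests were two-sided, with Benjamini-Hochberg adjustment over all genes and a threshold of 0.05. "Dim" means a mean below the median of all genes. The procedure was tested on simulated data. Fold and scaling alternatives are given at the end.

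The members and gene lists were chosen with earlier results of these data known. Array values are given for the 8 largest hydrolase rises, 6 pump and 4 membrane protein rises and up to 4 falls per class among called genes whose knockdown and control arrays did not overlap, for all soluble non-enzymes, for the 6 genes of lowest F test p, and for pump isoforms. In other lists, the 3 smallest p-values set the names. Other genes named in those lists, and Mitf, Tfeb, Dmxl2 and Cst7 array by array, were chosen after their values were seen. So were all the printed promoters, that of Lamp1 included.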

Additional observations from a re-analysis of the deposited data

Results flagged for a closer look

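The response of 16 lysosomal genes differed between hairpins against the same target, by the moderated F test in limma (adjusted p over all genes). Among proteases, these were Lgmn (0.00612), Ctsb (0.00789), Ctss (0.011), Ctsd (0.0275) and Ctsc (0.0366). Among other hydrolases, they were Galc (0.00304), Gla (0.00593), Arsb (0.0118), Lipa (0.0204), Glb1 (0.0301) and Ppt1 (0.0457). The membrane protein genes were Npc1 (0.0226) and Scarb2 (0.0379). The pump genes were Atp6v1c1 (0.0135), Atp6v0d2 (0.0159) and Atp6v1d (0.0356). Lgmn and Ctss changed least with Brg1sh_3364, though for Lgmn the difference from Brg1sh_3232 was not called (adjusted p = 0.0652 in limma). Brg1sh_3364 also gave the lowest median of macrophage markers among the hairpins, 11.54 to 11.55. The same hairpin gave the highest median of late neutrophil markers, 12.63 to 12.65, and a link was not tested. Each hairpin had 2 arrays, and the count of 16 was 2 to 18 when 1 array was left out.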

How the results depend on the processing

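Of the 41 lysosomal genes called in the mean of the hairpins, 24 kept their call in all 22 refits at the same threshold, 17 lost it in at least 1, and none changed direction. The calls were lost mainly when the hairpin, not the array, was the unit. With the hairpin means as replicates Arsb, Atp6v0d2, Atp6v1g2, Ctsb, Ctsc, Ctsh, Galc, Gla, Hexa, Lipa, Mcoln1 and Ppt1 were lost. With hairpin as a random block (correlation 0.288) Atp6v0d1, Atp6v1g1, Ctsa and Gaa were lost too. Smpd1 was called after further quantile normalization and without dim genes. The random block gave 23 rises in all in place of 38, 13 hydrolases in place of 23 and 3 pump subunits in place of 7. Hydrolase rises numbered 15 with hairpin means as replicates, and the single hydrolase fall, Arsb, became 0 in both fits and without hairpin Brg1sh_4935. For the other lysosomal lists 32 rises became 21 with hairpin means and 19 with the random block, and 14 falls became 4 in both. Among the refits, calls over all genes were counted only for the scaling alternatives. The other refit counts have no such share beside them.

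Asking for at least 1.5-fold left 7, 5, 9 and 7 rises and 0, 1, 0 and 1 falls with Brg1sh_3232, Brg1sh_3364, Brg1sh_4935 and in their mean. By class it left 5 hydrolases, 1 soluble non-enzyme, 0 membrane proteins and 1 pump subunit that rose, 0 hydrolases and 1 membrane protein that fell, and 4 rises and 2 falls in the other lists. A threshold of 0.01 gave 2 falls with Brg1sh_3232, 1 with Brg1sh_3364, 4 differences among hairpins, 4 pump rises and 8 falls in the other lists. Testing every row of the deposited table gave 2 falls with Brg1sh_3232 and 4 differences among hairpins, and fitting Brg1sh_3232 and Rluc alone gave 2 falls.

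Leaving out single arrays gave 20 to 32 rises and 2 to 4 falls with Brg1sh_3232, 1 to 3 falls with Brg1sh_3364, 2 to 18 differences among hairpins and 9 to 13 falls in the other lists. Centring each array on its median changed the class medians to 0.18 for hydrolases, 0.34 for soluble non-enzymes, 0.0703 for membrane proteins and -0.0224 for the pump, so the sign of the pump median depends on the scaling. The pump median was 0.058 without hairpin Brg1sh_3232 and the hydrolase median 0.27 without hairpin Brg1sh_3364. Centring also moved the share of rises among all called genes from 47.1% to 36.5% in the mean, and lysosomal rises from 38 to 34 in the mean and from 34 to 28 with Brg1sh_3232, with 3 and 4 falls in either case.

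Whether the replicate numbers pair the arrays could not be settled. Deviations from the group mean of same-numbered arrays correlated at -0.0721 to 0.249 over 12 pairs, and those of other-numbered arrays at -0.249 to 0.0721 over 18 pairs. With 2 arrays per hairpin these deviations mirror each other, so the pairs are not independent. The highest values, 0.19 and 0.249, were those of same-numbered Brg1sh_3232 and Rluc arrays. With the replicate number as a block 35 genes rose and 3 fell in the mean, and 20 differed among hairpins. The cause of these shifts was not tested.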
